A study of Homo sapiens with 5 samples.

Results

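The TET demethylation enzymes (TET1, TET2 and TET3) and thymine DNA glycosylase (TDG) were examined in human induced pluripotent stem cells (iPSCs) of the established line 201B7, labelled as wild type and kept without feeder cells. The study's chemical screen used iPSCs with an mCherry-MBD reporter gene, and the RRBS methods do not name the cells further. Each culture received 1 chemical for 48 h. Theophylline and propyl gallate were each given at 1 µM, the DNA methyltransferase inhibitor 5-aza-2′-deoxycytidine (5-aza-dc) at 10 nM and etoposide at 1 nM, and the vehicle control received 0.1% DMSO. DNA methylation was measured by Reduced Representation Bisulfite Sequencing (RRBS), which reads cytosines near CCGG sites after bisulfite conversion, and there was 1 library per condition. The values are β-values, the percentage of cytosine calls that were methylated, in windows of 1000 bases. The windows of the 4 genes were those that carried the gene symbol in the deposited table, or that lay in the gene or within 1500 bases of it, and there were 62 among the 288391 windows measured in all 5 libraries.

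Because no condition had a second library, conditions could not be tested against each other. Fisher's exact test below compares the calls of 2 libraries, not 2 conditions, and intervals cover counting error only. Sequenced copies of 1 molecule are counted more than once, and 1 read can give calls at several cytosines of a window. The test and the intervals treat all calls as independent, so intervals and p-values can understate even this error. All 4 comparisons used the same vehicle control library. Total calls in the shared windows were between 188844850 and 228919184 per library, and the median was 475 calls per window and library for the 4 genes against 437 for all windows. The cell type was checked at the starts of marker genes, with 3 ways of placing a start that were tried in turn with earlier values known. By the start in the deposited table and by the outermost RefSeq start alike, 4 of the 7 measured pluripotency genes were under 10% in every library and 2 were over 50%, but the genes were not the same. POU5F1 was between 88.1% and 91.3% by the first and between 0.686% and 1.61% by the other, and DPPA4 was between 0.165% and 1.15% by the first and between 76.8% and 88.9% by the other. With RefSeq promoters of 300 bases, 3 pluripotency genes were measured and 2 were under 10%. The fibroblast genes COL1A1 and COL1A2 were also under 10% by the start in the deposited table and by the outermost RefSeq start. TWIST2, the other fibroblast gene measured, was between 48.5% and 57.2% by all 3 ways. With both lists mixed, this check does not tell iPSCs from fibroblasts.

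TET enzymes are dioxygenases that oxidise 5-methylcytosine to 5-hydroxymethylcytosine and then to 5-formylcytosine and 5-carboxylcytosine. TDG excises the last 2 of these bases from DNA, and base excision repair puts an unmodified cytosine in their place. TET1 and TET3 have forms with a CXXC domain that binds CpG-rich DNA, whereas the full-length TET2 protein lacks it. TET1 and TET2 are the TET genes best known for their expression in pluripotent stem cells, and TET3 is best known for its role in the early embryo. 5-aza-dc is incorporated into DNA and traps DNA methyltransferases, etoposide is a topoisomerase II inhibitor, propyl gallate is an antioxidant and theophylline is a phosphodiesterase inhibitor. The β-value does not tell 5-methylcytosine from 5-hydroxymethylcytosine, since bisulfite converts neither.

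The windows with the least methylation lay at or just past starts of these genes. All 4 genes were matched in the RefSeq promoter table (GRCh38.p14), which holds 8 promoters for them, each from 250 bases before a start to 50 bases after it on the plus strand. The 4 promoters that lie in measured windows are shown because these windows are among those with the low β-values described below. The other low windows hold no promoter of the table. Capitals mark CG, the dinucleotide at which methylation was read.
TET1 first start, chr10:68560087-68560386: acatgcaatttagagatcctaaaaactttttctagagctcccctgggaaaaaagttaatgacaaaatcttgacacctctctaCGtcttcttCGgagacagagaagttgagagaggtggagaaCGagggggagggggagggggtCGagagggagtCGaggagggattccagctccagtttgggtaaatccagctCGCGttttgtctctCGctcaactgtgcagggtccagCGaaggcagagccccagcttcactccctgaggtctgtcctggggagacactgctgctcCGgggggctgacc
TET2 second start, chr4:105146626-105146925: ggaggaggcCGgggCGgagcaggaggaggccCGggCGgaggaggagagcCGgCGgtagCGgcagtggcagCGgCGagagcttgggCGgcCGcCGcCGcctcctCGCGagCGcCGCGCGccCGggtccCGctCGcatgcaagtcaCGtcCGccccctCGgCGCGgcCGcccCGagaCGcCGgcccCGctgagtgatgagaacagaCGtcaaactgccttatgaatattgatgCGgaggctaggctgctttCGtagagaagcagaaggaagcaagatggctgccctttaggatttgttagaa
TET3 first start, chr2:73984660-73984959: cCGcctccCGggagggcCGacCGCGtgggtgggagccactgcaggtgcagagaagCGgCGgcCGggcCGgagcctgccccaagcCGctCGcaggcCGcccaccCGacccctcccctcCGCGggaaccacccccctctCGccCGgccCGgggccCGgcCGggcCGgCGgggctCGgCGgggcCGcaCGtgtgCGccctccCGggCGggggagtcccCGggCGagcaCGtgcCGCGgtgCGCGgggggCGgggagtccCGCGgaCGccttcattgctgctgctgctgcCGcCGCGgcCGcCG
TET3 second start, chr2:74002442-74002741: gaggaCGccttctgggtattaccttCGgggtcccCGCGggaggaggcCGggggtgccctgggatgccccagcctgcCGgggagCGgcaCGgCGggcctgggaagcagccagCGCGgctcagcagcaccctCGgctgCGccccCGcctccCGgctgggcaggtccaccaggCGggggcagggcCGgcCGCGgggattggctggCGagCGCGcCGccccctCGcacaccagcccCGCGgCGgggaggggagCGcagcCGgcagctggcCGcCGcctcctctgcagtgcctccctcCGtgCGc

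The TET1 promoter held 10 CG, the TET2 promoter 35, and the TET3 promoters 45 and 33, against a median of 14 over the 35116 RefSeq promoters. At least 45 CG were found in 3.5% of all promoters, at least 10 in 56.4%. The sequence CCGG, which reads alike on both strands and holds 1 CG, occurred 1 time in the TET1 promoter, 5 times in the TET2 promoter, and 10 and 5 times in the TET3 promoters, and at least 1 time in 63.1% of all promoters. The promoter of TDG (chr12:103965622-103965921, 22 CG) and the first promoter of TET2 lie in windows that were not measured, as do both inner promoters of TET1 (chr10:68600018-68600317 and chr10:68600224-68600523). The TDG promoter and both inner TET1 promoters held 0 CCGG, and the first TET2 promoter held 1.

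Coverage of the genes was partial. TET1 (ENSG00000138336, chr10:68560337-68694487 on hg38) had 25 windows, of which 23 were among the 138 windows of the gene and its flanks. TET2 (ENSG00000168769, chr4:105145875-105279816) had 8, of which 6 were among 138 (4.35%). TET3 (ENSG00000187605, chr2:73984910-74108176) had 22 among 127, and TDG (ENSG00000139372, chr12:103965822-103988874) had 7 among 27 (25.9%). These positions are those of the deposited table. RefSeq gives a longer TET3 (chr2:73983631-74135498), and the added ends of that gene were not used to choose windows. All 4 genes are on the plus strand. The window of the gene start was measured for TET1 and TET3, not for TET2 and TDG. Of the 62 windows, 15 were in CpG islands, 9 in island shores, 3 in shelves and 35 outside these, and islands made up 24.2% of them against 17.3% of all windows.

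**Figure D1:**
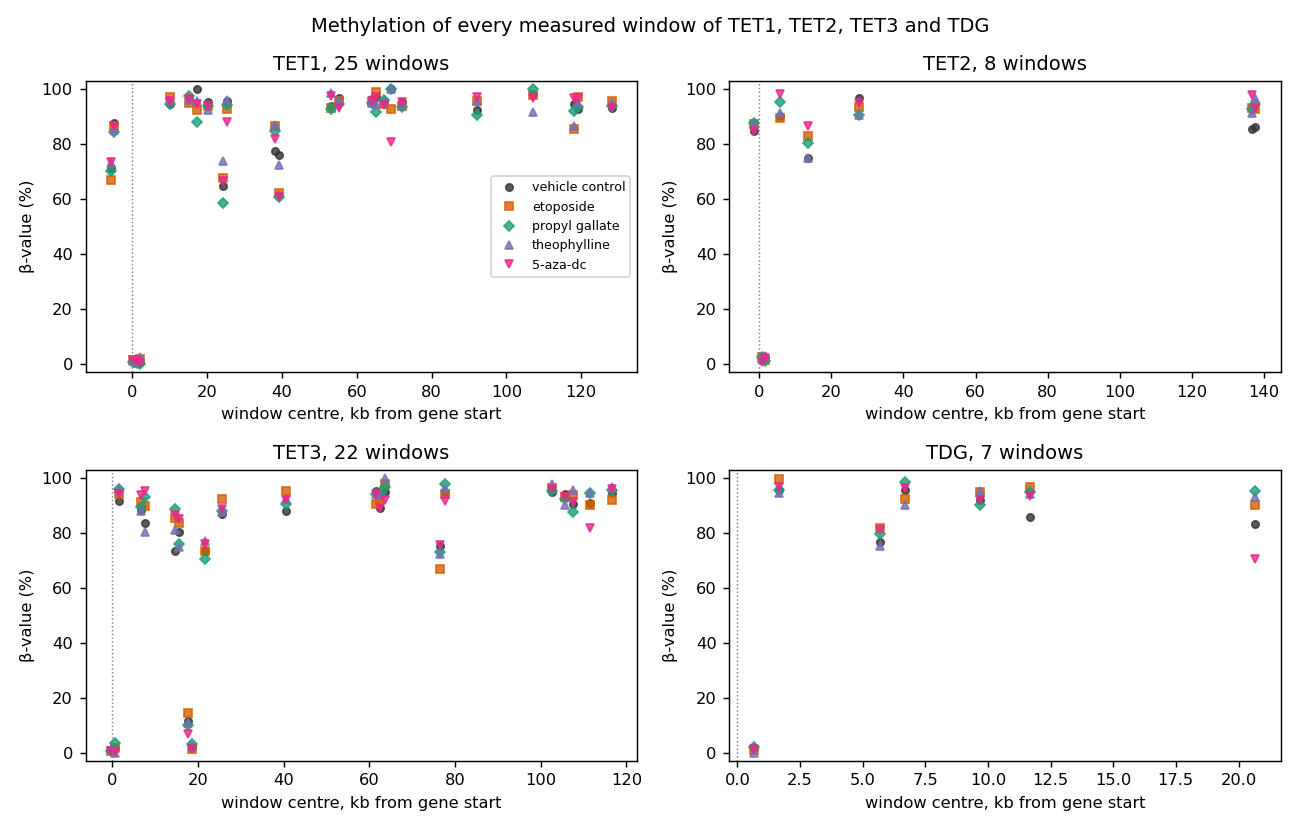
β-value (%) of each window in each of the 5 libraries against the distance of the window centre from the gene start in kb, for TET1, TET2, TET3 and TDG. Low values lie just past the gene starts, and in TET3 also 17.6 and 18.6 kb past it, and the other windows are high.

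Methylation was low in windows at or just past starts and high in the other windows. A total of 10 windows had a mean β-value under 20% over the 5 libraries, 3 in TET1, 2 in TET2, 4 in TET3 and 1 in TDG, and 9 of these were under 5% in every library. At the TET1 start (chr10:68560001-68561000) methylation was 1.23% in the vehicle control, 1.28% with etoposide, 0.563% with propyl gallate, 1.00% with theophylline and 1.30% with 5-aza-dc. The next window, chr10:68561001-68562000, was between 0.430% and 1.58%, and the one after it between 0 and 2.32%. Thus the first 3 windows of TET1 were nearly free of methylation in every library, and none passed Fisher's exact test at an adjusted p under 0.01, the threshold used throughout.

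At TET2 the window past the start, chr4:105146001-105147000, was 1.40% in the vehicle control, 2.39% with etoposide, 2.63% with propyl gallate, 1.73% with theophylline and 0.591% with 5-aza-dc. The next window was between 1.16% and 2.87%, from no more than 175 calls per library. In contrast, the window before the start, chr4:105144001-105145000, was between 84.8% and 87.6%. The TDG window past the start, chr12:103966001-103967000, was between 0 and 2.13%, and the 0 was from theophylline. The adjoining shore window of TDG was between 94.6% and 99.6%. At TDG the change from low to high thus lay between neighbouring windows, while at TET2 the windows between the low and the high ones were not measured.

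TET3 had low windows at both of its starts in the RefSeq promoter table. The first, chr2:73984001-73985000, was 0.864% in the vehicle control, 0.702% with etoposide, 0.518% with propyl gallate, 1.26% with theophylline and 0.584% with 5-aza-dc. The next window, chr2:73985001-73986000, was 1.74% in the vehicle control, 1.69% with etoposide, 3.31% with propyl gallate, 0 of 703 calls with theophylline and 0.166% with 5-aza-dc. The value of 0 allows up to 0.427%. Theophylline and 5-aza-dc were lower than the vehicle control by Fisher's exact test, with an adjusted p of 0.0032 and 0.0066.

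The second TET3 start (chr2:74002001-74003000, 17.6 kb into the gene) was the low window with the highest level. It was 11.5% in the vehicle control, 14.4% with etoposide, 9.87% with propyl gallate, 10.7% with theophylline and 6.72% with 5-aza-dc. The 5-aza-dc library differed from the vehicle control by -4.75 percentage points (pp) and had the lowest value of the 5 (Fisher's exact test, adjusted p = 0.00047; 95% Wilson interval of its level 5.43% to 8.28%). The neighbouring window, chr2:74003001-74004000, was between 1.24% and 3.21% and did not pass in any comparison. Of the 10 low windows, 0, 0, 1 and 2 passed with etoposide, propyl gallate, theophylline and 5-aza-dc, all 3 as lower, while 6.55%, 6.81%, 6.74% and 11.1% of all windows under 20% passed, so these counts are near those of low windows in general.

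**Figure D2:**
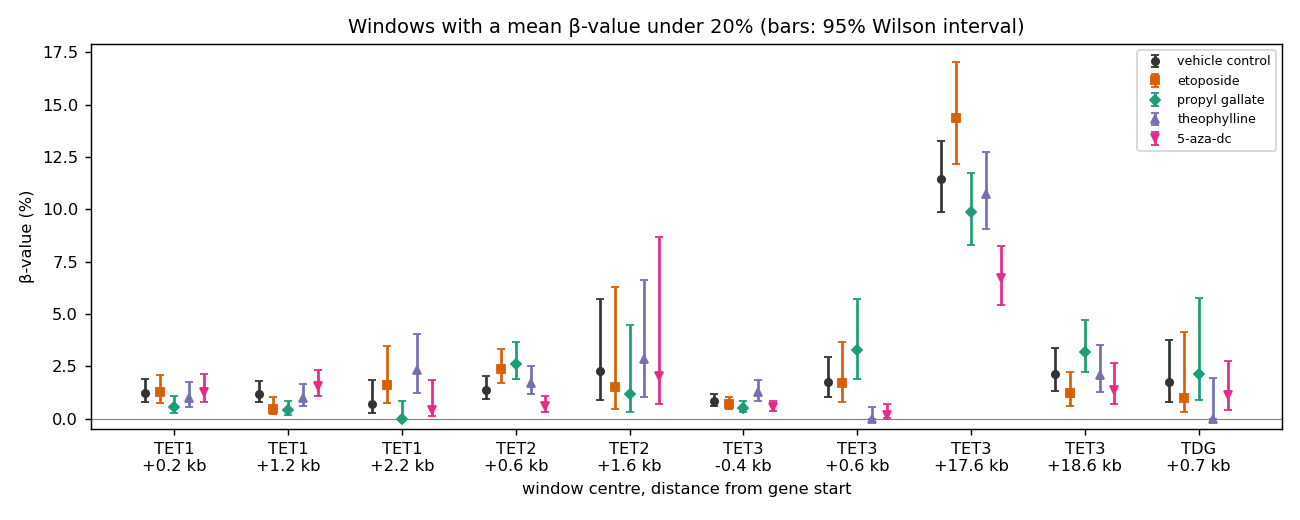
β-value (%) of the 10 windows with a mean under 20%, by gene and distance of the window centre from the gene start, with 95% Wilson intervals for the 5 libraries. All lie under 5% except the TET3 window at +17.6 kb, which was between 6.72% and 14.4%.

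Of the 15 CpG island windows, 9 had a mean under 20% and 6 did not, and over all CpG island windows 51.8% were under 20%. The methylated islands were a TET1 window before the start (chr10:68555001-68556000, between 84.4% and 87.7%), TET1 windows at chr10:68570001-68571000 (94.7% to 97.3%) and chr10:68624001-68625000 (94.9% to 96.5%), the TET2 window chr4:105159001-105160000, and the TET3 windows chr2:74025001-74026000 and chr2:74061001-74062000. Both kinds of island thus occurred within the same gene for TET1, TET2 and TET3. The other 52 windows had a mean of 89.1% in the vehicle control and between 89.8% and 90.2% in the chemical libraries.

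Means over all windows of the 4 genes differed by less than 1 pp between each chemical and the vehicle control when every window had equal weight. The mean β-value was 75.1% in the vehicle control, 76.0% with etoposide, 75.7% with propyl gallate, 76.0% with theophylline and 75.6% with 5-aza-dc. The difference from the vehicle control was 0.84 pp for etoposide (95% counting interval 0.11 to 1.55), 0.57 pp for propyl gallate (-0.15 to 1.27), 0.89 pp for theophylline (0.19 to 1.58) and 0.47 pp for 5-aza-dc (-0.36 to 1.22). Over all windows the differences were 0.51, 0.57, 0.98 and -1.03 pp. For 5-aza-dc the 4 genes were thus a little above the vehicle control while all windows were below it; whether the genes differ from other windows in this was not tested. The median over the 62 windows was nearer 0 than the mean, at 0.06, 0.21, 0.34 and 0.12 pp. With calls pooled over windows within each library, the differences were 2.91, 1.96, 3.72 and -1.21 pp. Pooling gives deep windows more weight, and each library had its own depths. A pooled difference thus also moves when calls are spread differently over low and high windows.

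**Figure D3:**
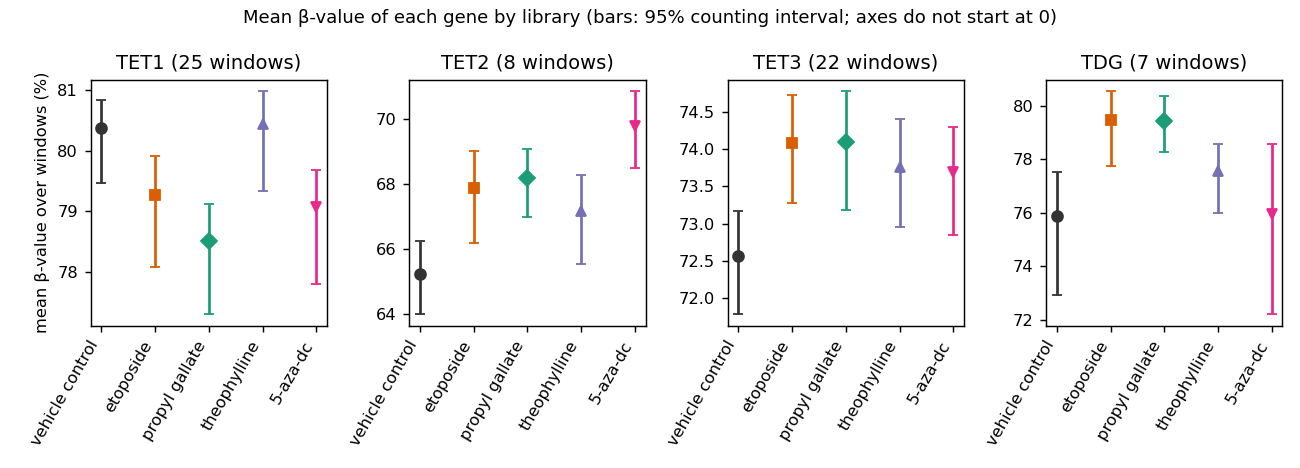
Mean β-value (%) over the windows of each gene in the 5 libraries, with 95% counting intervals; the axes differ between genes and do not start at 0. TET1 is lowest with propyl gallate, and TET2, TET3 and TDG are lowest in the vehicle control, for TDG within the interval of 5-aza-dc.

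The genes differed in order of the libraries. TET1 had a mean of 80.4% in the vehicle control, 79.3% with etoposide, 78.5% with propyl gallate, 80.5% with theophylline and 79.1% with 5-aza-dc. It was lower than the vehicle control by 1.87 pp with propyl gallate (interval -3.17 to -0.78) and by 1.30 pp with 5-aza-dc (-2.66 to -0.22), and the interval for etoposide reached 0. Without the 2 TET1 windows that had under 30 calls in a library, the values were -0.57, -1.52 and -0.36 pp for etoposide, propyl gallate and 5-aza-dc, and with pooled calls 0.17, -2.49 and -0.50 pp. Neighbours in the order of the 5 TET1 means did not differ beyond their intervals, although propyl gallate and theophylline, at the ends, did.

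TET2 had a mean of 65.2% in the vehicle control, 67.9% with etoposide, 68.2% with propyl gallate, 67.2% with theophylline and 69.8% with 5-aza-dc. The differences from the vehicle control were 2.65, 2.94, 1.92 and 4.54 pp, and each interval lay above 0. These values rest partly on 2 windows past the end of the gene that carry its symbol. Without them they were 1.18, 1.30, -0.22 and 2.83 pp, and with calls pooled over all TET2 windows the values for theophylline and 5-aza-dc were -1.30 and -2.07 pp. The value for TET2 thus stayed above 0 under both alternatives for etoposide and propyl gallate, and not for theophylline and 5-aza-dc. The pooled value for 5-aza-dc lay below the lowest difference of a single TET2 window, -1.79 pp. It thus also holds how calls were spread over windows in each library. In the order of the 5 means, the vehicle control and theophylline differed beyond their interval, as did propyl gallate and 5-aza-dc, and the other neighbours did not.

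TET3 had a mean of 72.6% in the vehicle control and between 73.7% and 74.1% in the chemical libraries, which differed from it by 1.13 to 1.54 pp with every interval above 0. With the 9 windows that carry the TET3 symbol alone, the value was -1.07 pp for etoposide and -1.30 pp for 5-aza-dc, and pooled calls gave 5.04, 4.64, 7.18 and -1.95 pp for etoposide, propyl gallate, theophylline and 5-aza-dc. The size for TET3, and for etoposide and 5-aza-dc its direction, thus depended on which windows were taken or on pooling. The low window chr2:73984001-73985000 had 3935 calls in the vehicle control. It had 3143, 3017, 2134 and 3961 with etoposide, propyl gallate, theophylline and 5-aza-dc, so pooled values also follow numbers of calls. In the order of the means, the vehicle control differed from its neighbour, 5-aza-dc, and no neighbouring chemical libraries differed beyond their intervals.

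TDG had a mean of 75.9% in the vehicle control, 79.5% with etoposide, 79.4% with propyl gallate, 77.5% with theophylline and 75.9% with 5-aza-dc. It was above the vehicle control by 3.59 pp with etoposide (interval 1.23 to 6.71) and 3.56 pp with propyl gallate (1.56 to 6.63), while the interval for theophylline (-0.58 to 4.78) and for 5-aza-dc (-4.01 to 4.01) held 0. The window chr12:103986001-103987000 had only 14 to 150 calls per library, and without it the differences were 3.05, 2.20, 0.36 and 2.21 pp. With pooled calls they were 8.59, 8.88, 6.60 and 0.96 pp. Among neighbours in the order of the TDG means, theophylline and propyl gallate alone differed beyond their interval.

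**Figure D4:**
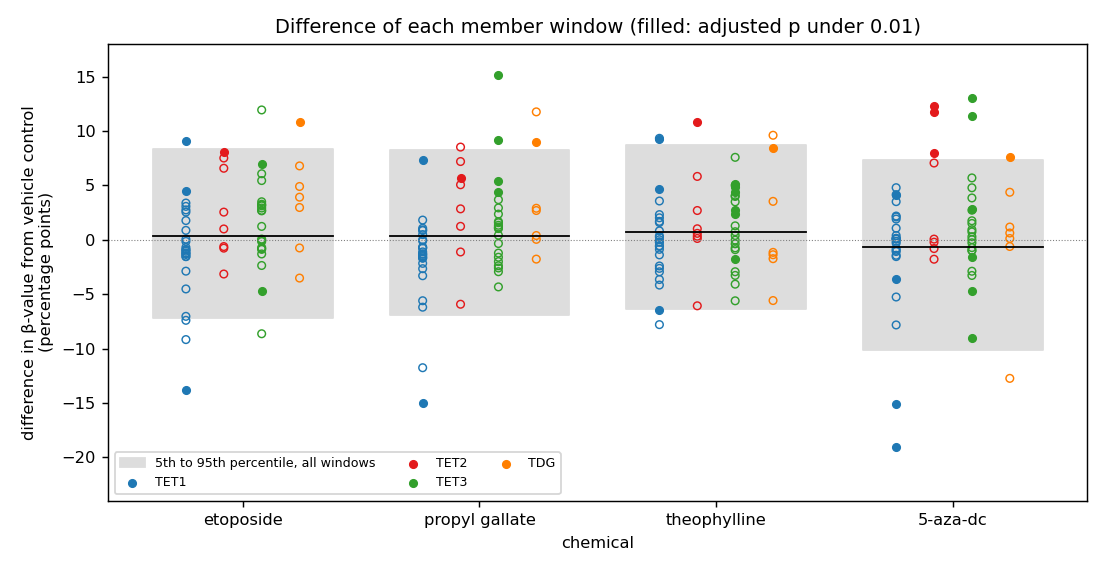
Difference in β-value (pp) between each chemical and the vehicle control for each of the 62 windows, by gene; filled points passed Fisher's exact test at an adjusted p under 0.01, grey bands span the 5th to 95th percentile of all windows and black lines their median. The lowest points belong to TET1, and most of the 62 points lie within the bands.

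Window by window, between 11.3% and 22.6% of the 62 windows passed, beside the shares of all windows given here. With etoposide, 5 windows were higher and 2 lower than the vehicle control, where 6.37% and 3.74% of all windows passed, 10.1% in all. With propyl gallate the counts were 7 and 1 (background 6.55% and 3.71%, 10.3% in all), with theophylline 9 and 2 (8.13% and 2.86%, 11.0% in all), and with 5-aza-dc 8 and 6 (3.55% and 10.4%, 14.0% in all). As shares of the 62 windows, the higher and lower counts were 8.06% and 3.23% for etoposide, 11.3% and 1.61% for propyl gallate, 14.5% and 3.23% for theophylline, and 12.9% and 9.68% for 5-aza-dc. Whether these differ from the shares of all windows was not tested. In all, 24 of the 62 windows passed in at least 1 comparison (31.9% of all windows did), 7 in TET1, 4 in TET2, 12 in TET3 and 1 in TDG. None passed with a difference of at least 25 pp, and 11 of the 40 comparisons that passed differed by at least 10 pp. Of these 11, etoposide had 1 higher and 1 lower (1.36% and 0.956% of all windows), propyl gallate 1 and 1 (1.34% and 0.880%), theophylline 1 and 0 (1.59% and 0.681%) and 5-aza-dc 4 and 2 (0.876% and 2.76%). With every number of calls divided by 2, 3, 1, 0 and 3 windows passed for etoposide, propyl gallate, theophylline and 5-aza-dc. The share of all windows that passed fell as well, to no more than 2.72% in any comparison.

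The TDG window chr12:103977001-103978000, 11.7 kb past the start, passed in all 4 comparisons. It was 85.8% in the vehicle control, 96.7% with etoposide, 94.8% with propyl gallate, 94.3% with theophylline and 93.4% with 5-aza-dc. The vehicle control stood apart as the lowest value, and its interval did not overlap those of the chemical libraries. The differences were 10.8, 8.95, 8.47 and 7.59 pp (Fisher's exact test, adjusted p = 2.0e-06, 4.3e-05, 0.0002 and 0.0018), all against the same vehicle library. The largest falls in TDG did not pass: chr12:103972001-103973000 was 95.8% in the vehicle control, 92.3% with etoposide and 90.2% with theophylline, chr12:103975001-103976000 was 91.9% in the vehicle control and 90.1% with propyl gallate, and with 5-aza-dc, among windows with at least 30 calls, it was the window past the start, at -0.62 pp.

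Adjoining windows of TET1 went in opposite directions. The window chr10:68598001-68599000 was 77.6% in the vehicle control, 86.7% with etoposide, 84.9% with propyl gallate, 86.8% with theophylline and 81.7% with 5-aza-dc. It was higher than the vehicle control with etoposide, propyl gallate and theophylline (Fisher's exact test, adjusted p = 4.3e-05, 0.0033 and 3.5e-05). The next window, chr10:68599001-68600000, was 75.9% in the vehicle control, 62.1% with etoposide, 60.9% with propyl gallate, 72.3% with theophylline and 60.8% with 5-aza-dc. The vehicle control and theophylline were thus high and the other 3 libraries low, by 13.8, 15.0 and 15.1 pp for etoposide, propyl gallate and 5-aza-dc (Fisher's exact test, adjusted p = 1.0e-06, 3.7e-08 and 3.8e-08). This window ends just before the unmeasured inner promoters of TET1 annotated by RefSeq.

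**Figure D5:**
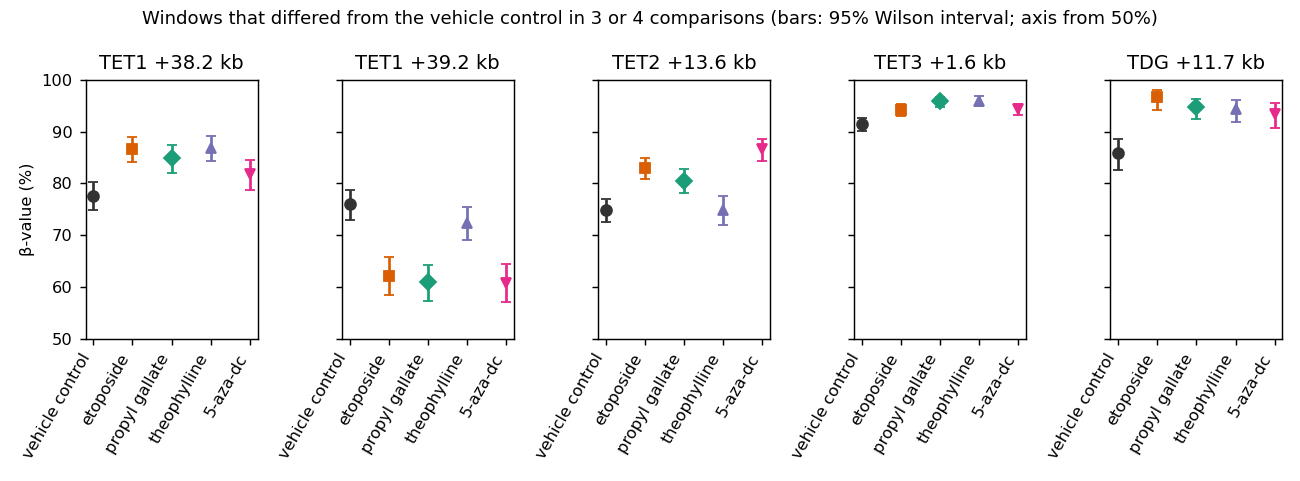
β-value (%) in the 5 libraries for the 5 windows that passed Fisher's exact test against the vehicle control in 3 or 4 comparisons, with 95% Wilson intervals; the axis starts at 50%. The TET1 window at +39.2 kb is the only one of the 5 that was lower than the vehicle control, and the TDG window at +11.7 kb is the one that passed in all 4.

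The other 5 TET1 windows that passed did so in 1 or 2 comparisons. All 7 TET1 windows that passed carry the symbol COX20P1 or RPS3AP37 in the deposited table and were taken by position. None of the 12 windows with the TET1 symbol passed. With 5-aza-dc, chr10:68629001-68630000 was 81.0% against 100% in the vehicle control, from 52 calls in each (Fisher's exact test, adjusted p = 0.0089), and chr10:68615001-68616000 was 93.2% against 96.8%. With theophylline, chr10:68613001-68614000 was 98.8% against 94.1%, and chr10:68667001-68668000 was 91.7% against 98.2%. The window chr10:68679001-68680000 was higher with etoposide (97.2%) and 5-aza-dc (96.9%) than in the vehicle control (92.7%). Among windows that did not pass, chr10:68584001-68585000 was 74.0% with theophylline and 64.7% in the vehicle control, chr10:68652001-68653000 was 97.1% with 5-aza-dc and 92.3% in the vehicle control, and chr10:68678001-68679000 was 86.8% with theophylline and 94.6% in the vehicle control.

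The partly methylated island of TET2 at chr4:105159001-105160000, 13.6 kb past the start, was 74.8% in the vehicle control, 82.9% with etoposide, 80.5% with propyl gallate, 74.9% with theophylline and 86.6% with 5-aza-dc. It was higher with etoposide, propyl gallate and 5-aza-dc (Fisher's exact test, adjusted p = 1.4e-05, 0.0072 and 1.4e-10), by 8.09, 5.70 and 11.8 pp. In the deposited table this window carries the symbol TET2-AS1. The vehicle control and theophylline were the low pair here and the high pair in the TET1 window above. With 5-aza-dc, chr4:105151001-105152000 was 98.2% against 90.2% and chr4:105282001-105283000, past the gene end, 97.8% against 85.5% in the vehicle control. The neighbouring chr4:105283001-105284000 was 97.0% with theophylline, 94.7% with propyl gallate, which did not pass, and 86.2% in the vehicle control. No TET2 window passed as lower in any comparison; the largest fall with each chemical was at chr4:105173001-105174000, which was 96.7% in the vehicle control and between 90.7% and 94.9% in the others.

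In TET3 the shore next to the unmethylated start, chr2:73986001-73987000, was 91.5% in the vehicle control, 94.2% with etoposide, 95.9% with propyl gallate, 95.9% with theophylline and 94.3% with 5-aza-dc. The vehicle control was the lowest, and propyl gallate, theophylline and 5-aza-dc passed (Fisher's exact test, adjusted p = 4.0e-06, 5.2e-06 and 0.0066). Further in, chr2:73992001-73993000 was 83.7% in the vehicle control, 89.8% with etoposide, 92.9% with propyl gallate, 80.5% with theophylline and 95.1% with 5-aza-dc. The window chr2:73999001-74000000, which lies before the second start, was 73.6% in the vehicle control, 85.5% with etoposide, 88.7% with propyl gallate, 81.2% with theophylline and 86.6% with 5-aza-dc. In both of these windows propyl gallate and 5-aza-dc passed as higher, by 9.19 and 11.4 pp in the first and 15.1 and 12.99 pp in the second. Etoposide, with 11.9 pp in the second, did not pass (Fisher's exact test, adjusted p = 0.014).

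The remaining TET3 windows that passed lay 40.6 kb or more past the start. With etoposide, the island chr2:74025001-74026000 was 95.1% against 88.1% in the vehicle control, and chr2:74046001-74047000 was 90.5% against 95.2%. The window chr2:74047001-74048000 was 94.3% with propyl gallate and 93.8% with theophylline against 88.9%. Theophylline was also higher at chr2:74087001-74088000 (97.7% against 94.97%), chr2:74092001-74093000 (95.7% against 90.6%) and chr2:74101001-74102000 (96.8% against 94.4%), and 5-aza-dc was lower at chr2:74096001-74097000 (81.9% against 91.0%). The largest falls that did not pass were at chr2:74061001-74062000 with etoposide (66.7% against 75.3%) and at chr2:74000001-74001000 with propyl gallate and theophylline (76.0% and 74.7% against 80.3%).

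The genes that act with these enzymes were counted in the same way. The 12 base excision repair partners of TDG, among them MBD4, UNG, APEX1 and XRCC1, had 121 windows, of which 3, 4, 6 and 4 passed as higher and 7, 6, 4 and 13 as lower with etoposide, propyl gallate, theophylline and 5-aza-dc. The 8 partners and regulators of TET enzymes, among them the sugar transferase OGT, the isocitrate dehydrogenases IDH1 and IDH2 and the GADD45 genes, had 65 windows, of which 0, 0, 2 and 0 were higher and 5, 2, 2 and 9 lower. DNMT1, DNMT3A, DNMT3B, DNMT3L and UHRF1, which place or maintain methylation, had 143 windows, of which 13, 9, 6 and 8 were higher and 3, 5, 4 and 18 lower. In the same order of chemicals, higher windows were 2.48%, 3.31%, 4.96% and 3.31% of the repair list. They were 0%, 0%, 3.08% and 0% of the TET partner list and 9.09%, 6.29%, 4.20% and 5.59% of the last list. Over all windows they were 6.37%, 6.55%, 8.13% and 3.55%. Lower windows were 5.79%, 4.96%, 3.31% and 10.7%, then 7.69%, 3.08%, 3.08% and 13.8%, then 2.10%, 3.50%, 2.80% and 12.6%. Over all windows they were 3.74%, 3.71%, 2.86% and 10.4%. With 5-aza-dc the lower shares were near that of all windows and are not a result about the lists. Whether the other shares differ was not tested. The median difference of the lists with 5-aza-dc was between -0.93 and -0.47 pp, beside -0.64 pp over all windows and 0.12 pp over the windows of TET1, TET2, TET3 and TDG.

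Over the 5 libraries, the genes whose mean β-value followed each gene most closely were KCNK12, MIR582 and EIPR1 for TET1 (Pearson's r of KCNK12 0.993), COLGALT2, FABP5P9 and ANTXRL for TET2 (COLGALT2 0.981), PHYHIP, ZNF7 and DGKD for TET3 (PHYHIP 0.994) and SPATS2, LINC02318 and MIR589 for TDG (SPATS2 0.999). These were the 3 highest among between 1771 and 4021 genes with at least 10 windows and a mean level within 10 pp, from 5 points that share their libraries and their vehicle control, and are given as a description.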

How the data were processed

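RRBS libraries were made from 5 iPSC cultures, 1 per condition, grouped by the treatment in the labels. Per the submitters' processing notes and the methods, the authors checked reads with FastQC 0.11.7, trimmed them with Trim Galore 0.5.0, aligned them to hg38 with Bismark 0.20.0, and used SAMtools 1.9 and methylKit 1.10.0 to sum cytosine calls over windows of 1000 bases, scale coverage, remove windows under 10 calls or of extreme coverage, and merge the libraries. Duplicates from PCR stay in the calls. The deposited counts of the vehicle control are unscaled. The other 4 libraries hold a score, counts that the authors multiplied and rounded; the factors (1.18 for etoposide, 1.09 for propyl gallate, 1.15 for theophylline, 1.21 for 5-aza-dc) were recovered from whole numbers that never occur, and multiplying by them again gave the deposited coverage in 99.95% or more of the windows. The deposited β-values are fractions and are printed as percent; intervals (Wilson, 95%) and tests used the recovered calls, although the test had been planned on deposited counts. For 0 methylated calls, 3 calls set the upper limit.

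Fisher's exact test, two-sided, was run for each chemical against the vehicle control in all 288391 windows, with Benjamini-Hochberg adjustment over them and a threshold of 0.01. On simulated 5-aza-dc and vehicle control libraries it found 54 of 100 windows changed by 10 percentage points and 100 of 100 changed by 30, with 1 unchanged window called. The simulated calls were independent, both libraries shared 1 level per unchanged window, and changes were set only in windows with many calls and high methylation. Copies from PCR, calls that share a read and differences between cultures were not simulated, so these counts are not error rates for the real libraries. Intervals of a mean or of a difference combined the window intervals by squaring and adding. Windows named were those at the gene start and beside it, those that passed in any comparison, and, per gene and chemical, the largest rise and fall with at least 30 calls. The genes, the lists and the window rule were chosen with earlier results of these data known, and how marker starts were placed was changed after seeing values. Promoters came from RefSeq. The genome sequence at hand was of another build and was not used here. Python 3.11.15, numpy 2.4.6, pandas 2.3.3, scipy 1.17.1 and numba 0.67.0 were used.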

Additional observations from a re-analysis of the deposited data

How the results depend on the processing

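No paired analysis was possible because each condition has 1 library. Of 32 alternatives for the mean over the 62 windows, 26 stayed within the counting interval. For 5-aza-dc these included values below 0, -0.31 pp for windows assigned by symbol and -0.11 pp against the mean of the other 4 libraries. With at least 30 calls the 5-aza-dc value was 1.12 pp. Pooling all calls gave 2.91, 1.96, 3.72 and -1.21 pp for etoposide, propyl gallate, theophylline and 5-aza-dc; for etoposide, windows assigned by symbol gave 0.10 pp and the median of windows 0.058 pp. Pooled calls weight deep windows more and also follow how the calls of each library were spread over windows. The cause of the other moves was not tested. For windows that passed (7, 8, 11 and 14 in the same order), a difference of at least 10 pp left 2, 2, 1 and 6, at least 25 pp left 0, 0, 0 and 0, and calls divided by 2 left 3, 1, 0 and 3. Dividing calls by 2 also lowered the share of all windows that passed, to no more than 2.72% in any comparison. An adjusted p under 0.05 gave 13 for etoposide, where the share of all windows was 18.3%, against 10.1% under 0.01. Scaling as deposited and a minimum of 30 calls kept all 4 counts within 1.5 times.

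For single genes, 44 of 64 alternatives stayed within the interval; those limited to at least 30 calls or to the gene and its flanks were chosen after seeing the data. Pooled calls gave 0.17 pp for TET1 with etoposide, -1.30 and -2.07 pp for TET2 with theophylline and 5-aza-dc (both reversed), 5.04, 4.64, 7.18 and -1.95 pp for TET3 (the last, 5-aza-dc, reversed), and 8.59, 8.88 and 6.60 pp for TDG with etoposide, propyl gallate and theophylline. Windows assigned by symbol gave -1.07 and -1.30 pp for TET3 with etoposide and 5-aza-dc (both reversed) and 0.22 pp with propyl gallate, and, from the 1 such TDG window, 6.79, 11.8, 9.61 and -12.7 pp. Without windows past the gene, TET2 gave 1.30 pp with propyl gallate, -0.22 pp with theophylline (reversed) and 2.83 pp with 5-aza-dc. Depth limits single windows: the median width of an interval over all windows was between 4.83 and 5.60 pp.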
